A study of Arabidopsis thaliana with 18 samples.

Results

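Anthocyanins, the red and purple pigments of Arabidopsis seedlings, leave the core pathway as simple cyanidin 3-O-glucosides and are then dressed with further sugars and acyl groups. The 8 genes described here, of 32547 Arabidopsis loci counted, encode these late decorating enzymes. They were chosen by locus identifier from what is known of the enzymes and not by their levels, although earlier results of these data were known. All 8 passed the filter on low counts.

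The decoration of cyanidin in Arabidopsis is carried out by UDP-sugar dependent glycosyltransferases, by BAHD acyltransferases that use CoA thioesters, by a serine carboxypeptidase-like acyltransferase that uses sinapoylglucose, and by a glycoside hydrolase-like enzyme that uses acyl-glucose. UGT78D2 adds glucose to the 3-position of flavonols and anthocyanidins. UGT75C1 adds glucose to the 5-position, and UGT79B1 adds xylose to the 3-O-glucose. BGLU10 adds a glucose to the coumaroyl group and is thought to act in the vacuole. 5MAT adds malonate to the 5-O-glucose, 3AT1 and 3AT2 add p-coumarate to the 3-O-glucose, and SCPL10 adds sinapate to the xylose. In seedlings the late pathway genes are known to be driven by a complex of a MYB protein, a bHLH protein such as TT8, and the WD40 protein TTG1.

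Seedlings were shaken for 4 days in 3% sucrose under continuous light, a treatment that the labels call AIC without spelling it out, and their polyadenylated RNA was sequenced. The mutant samples were insertion lines named by allele and by collection number, with 1 library for each line. There were 2 lines of ttg1 (ttg1-23 and ttg1-24) and 6 of tt8 (tt8-7 to tt8-12). The genes BAN, TT1, TT3 and TT5 had 2 lines each (ban-6, ban-7, tt1-4, tt1-5, tt3-3, tt3-4, tt5-3, tt5-4). BAN encodes anthocyanidin reductase, TT1 a zinc finger protein, TT5 chalcone isomerase and TT3 the reductase of dihydroflavonols (DFR). The wild type Col-0 had 2 files, which differed by less than sampling noise and were counted as 1 sample. The lines of a gene were treated as its samples, so a p-value measures only the spread between these libraries, and nothing in the labels says that they came from separate cultures. In whole seedlings, fewer cells of a type and less RNA per cell cannot be told apart.

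Library totals ran from 8057534 counts in ttg1-24 to 27145377, so that 3 counts corresponded to 0.372 CPM (counts per 1000000 counted) in the shallowest library. TTG1 itself had 15.9 CPM in ttg1-23 and no count in ttg1-24 (at most 0.372 CPM), against 22.7 to 28.6 CPM in the other mutants and 30.4 CPM in Col-0. Both ttg1 lines thus had less TTG1 RNA than every other sample, and ttg1-23 kept part of it. The tt8 lines did not lack TT8 RNA. TT8 was lowest in tt8-11 (6.97 CPM) and tt8-9 (8.49), stood at 28.7 CPM for tt8-7, 40.1 for tt8-12 and 73.0 for tt8-10, and was highest for tt8-8 (102 CPM), where Col-0 had 11.5 CPM. TT3, which is DFR, was not low in the lines labelled tt3 either, with 211 CPM in tt3-3 and 274 CPM in tt3-4, the highest of the 17 samples, against 63.2 CPM in Col-0. TT5 was low in its own lines (4.23 CPM for tt5-3, 4.502 for tt5-4), where Col-0 had 43.4 CPM. BAN and TT1 check nothing here, since BAN had at most 0.0949 CPM and TT1 0 counts in every mutant line other than ttg1. Whether the lines labelled tt8 and tt3 lack a working product cannot be told from these counts, and this holds for each comparison with them below.

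The stretches just before 4 of the genes are printed first, because they hold the G-box and AC-II matches among the 8 genes, or, for BGLU10, belong to the gene whose level was not lower in ttg1. Each is the 250 bases before the annotated start in the RefSeq genome TAIR10.1, read 5′ to 3′ on the gene's strand. Capitals mark the G-box CACGTG, a word bound by bHLH proteins, and the AC-II element ACCAACC, a word bound by MYB proteins, on either strand. The windows are chr5:21938397-21938646 on the minus strand for UGT79B1, chr2:9791916-9792165 on the plus strand for SCPL10, chr4:8123836-8124085 on the minus strand for UGT75C1 and chr4:13864660-13864909 on the minus strand for BGLU10.
UGT79B1: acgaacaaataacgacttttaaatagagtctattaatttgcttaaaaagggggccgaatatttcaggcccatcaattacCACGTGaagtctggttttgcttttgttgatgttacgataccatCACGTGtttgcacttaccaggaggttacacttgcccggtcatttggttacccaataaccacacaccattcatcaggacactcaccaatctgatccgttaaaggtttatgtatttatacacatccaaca
SCPL10: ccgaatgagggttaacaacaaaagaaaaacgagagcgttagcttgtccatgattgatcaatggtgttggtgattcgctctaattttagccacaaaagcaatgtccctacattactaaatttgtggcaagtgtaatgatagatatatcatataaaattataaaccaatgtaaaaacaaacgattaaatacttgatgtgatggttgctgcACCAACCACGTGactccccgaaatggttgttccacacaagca
UGT75C1: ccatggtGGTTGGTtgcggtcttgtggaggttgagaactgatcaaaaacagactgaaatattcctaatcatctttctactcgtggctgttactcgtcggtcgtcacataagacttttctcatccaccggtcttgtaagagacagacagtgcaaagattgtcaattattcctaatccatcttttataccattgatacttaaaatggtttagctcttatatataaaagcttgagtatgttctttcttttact
BGLU10: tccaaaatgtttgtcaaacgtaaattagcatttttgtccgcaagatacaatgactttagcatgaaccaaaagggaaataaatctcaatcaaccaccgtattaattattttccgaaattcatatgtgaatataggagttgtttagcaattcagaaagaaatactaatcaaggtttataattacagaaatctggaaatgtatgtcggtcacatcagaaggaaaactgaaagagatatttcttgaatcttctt

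The UGT79B1 window holds 2 G-boxes, which start 171 and 128 bases before the gene. In the SCPL10 window an AC-II element 42 bases before the gene overlaps a G-box that starts 36 bases before it. The UGT75C1 window holds an AC-II element on the other strand, 243 bases before the gene. Among 27443 such windows of the genome, 6.49% hold a G-box and 2.69% hold AC-II. Of the 8 genes, 2 hold a G-box (UGT79B1 and SCPL10) and 2 hold AC-II (UGT75C1 and SCPL10). AC-I (ACCTACC, 1.16% of windows) and AC-III (ACCTAAC, 2.46%) were in none of the 8. The looser E-box CANNTG, which includes every G-box, was in 5 of the 8 against 55.3% of all windows. The looser MYB word ANCNNCC, which overlaps the AC elements, was in 6 of the 8 against 48.8%. UGT78D2 held none of these 6 words. A match is a string of letters and was not shown to be a bound site.

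The main question was which of the 8 genes are low when TTG1 is disrupted, and it was put by setting the ttg1 lines against the 14 lines of the other genes, each gene weighted equally. The test was edgeR's quasi-likelihood F-test over 21184 genes with Benjamini-Hochberg adjustment, and a gene was called at an adjusted p under 0.05. UGT79B1, 5MAT, UGT75C1 and 3AT1 fell in ttg1. SCPL10 and UGT78D2 were below every other sample but missed the threshold, 3AT2 overlapped the other samples, and BGLU10 was not lower. Of the 8 genes 4 were called lower, where 0.279% of all tested genes were. Without ttg1-24 no member was called, while the log2 differences of the 4 genes stayed between −8.15 and −2.64, with adjusted p from 0.367 to 0.749. Without ttg1-23, UGT79B1 and 5MAT were called.

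**Figure D1:**
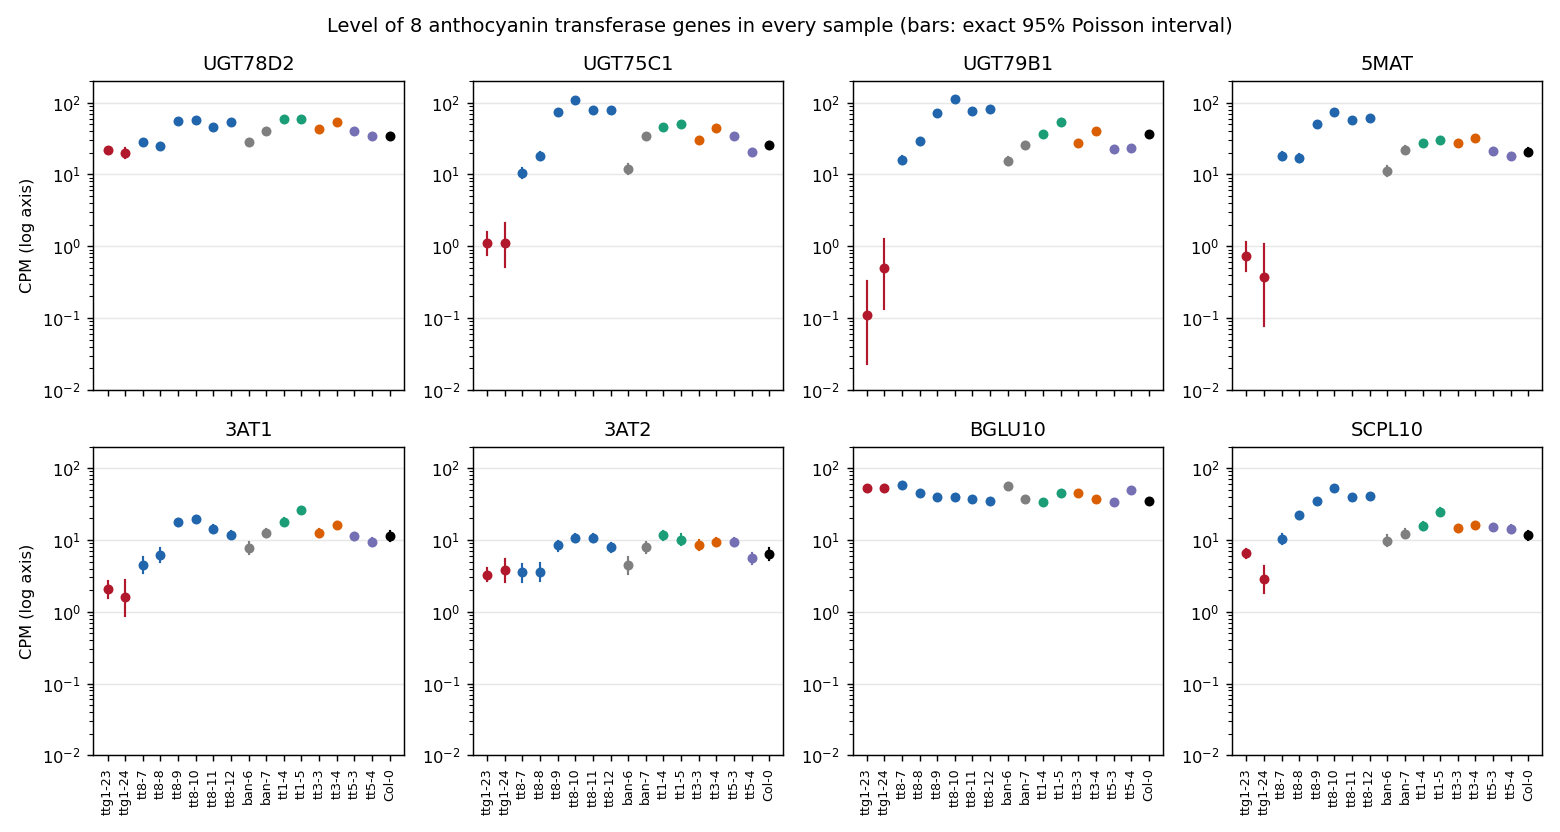
CPM on a log axis for each of the 8 genes in 17 samples, with the ttg1 lines at the left and Col-0 at the right; bars are exact 95% Poisson intervals of counting error. The ttg1 points of UGT75C1, UGT79B1 and 5MAT lie near or below 1 CPM, while those of BGLU10 lie at 53.4 and 53.6 CPM.

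Among the sugar transferases, UGT79B1, the xylosyltransferase (AT5G54060, chr5:21936746-21938396, 1 exon), was the lowest in ttg1 per kilobase of exon. It had 3 counts in ttg1-23 and 4 in ttg1-24, which are 0.111 CPM (95% exact Poisson interval 0.0229 to 0.325) and 0.496 CPM (0.135 to 1.27). The tt8 lines had a lowest value of 15.99, a median of 74.5 and a highest of 112 CPM, ban had 15.4 and 25.5, tt1 36.3 and 54.5, tt3 27.8 and 40.0, tt5 22.6 and 23.0, and Col-0 36.1 CPM. The ttg1 lines did not overlap any other sample, and the lowest of those was 31.1 times the higher ttg1 value. The fitted log2 fold change was −7.20 ± 0.97 (SE; edgeR adjusted p = 0.0143, n = 2 and 14), and its size rests on a handful of ttg1 counts.

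UGT75C1, the 5-O-glucosyltransferase (AT4G14090, chr4:8122188-8123835, 1 exon), had 1.11 CPM in ttg1-23 and 1.12 CPM in ttg1-24, from 30 and 9 counts. The tt8 lines had 10.4, 76.4 and 109 CPM as lowest, median and highest, ban 11.8 and 34.1, tt1 46.0 and 50.4, tt3 30.7 and 44.2, tt5 33.9 and 20.2, and Col-0 26.1 CPM. Every other sample was at least 9.31 times the higher ttg1 value. The log2 fold change was −4.98 ± 0.97 (edgeR adjusted p = 0.0371). The 3′ end of UGT75C1 overlaps AT4G14100 on the opposite strand, which had 5.97 and 4.84 CPM in ttg1 and 1.99 to 5.47 CPM elsewhere. Whether the authors' counting used strand is not given in the sources used here.

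UGT78D2, the 3-O-glucosyltransferase that serves flavonols as well as anthocyanins (AT5G17050, chr5:5607788-5609589, 2 exons), had 21.9 and 20.1 CPM in ttg1-23 and ttg1-24. In tt8 the lowest, median and highest values were 24.8, 49.6 and 56.6 CPM, while ban had 28.2 and 40.4, tt1 59.0 and 58.5, tt3 43.3 and 53.6, tt5 40.9 and 34.2, and Col-0 34.3 CPM. The ttg1 lines lay below every other sample, but by a narrow margin, since the lowest other sample was 1.14 times the higher ttg1 value. The log2 fold change of −0.99 ± 0.27 missed the threshold (edgeR adjusted p = 0.0944), whereas DESeq2, which called 4.05% of 28022 genes in this comparison, called it (adjusted p = 0.0148).

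BGLU10, the acyl-glucose dependent glucosyltransferase (AT4G27830, chr4:13861649-13864659, 13 exons), had 53.4 and 53.6 CPM in ttg1-23 and ttg1-24. The tt8 lines had 35.3, 40.1 and 57.9 CPM as lowest, median and highest, ban 56.9 and 37.0, tt1 33.7 and 45.0, tt3 45.7 and 37.6, tt5 33.5 and 50.2, and Col-0 34.4 CPM. The ttg1 lines were above 13 of the 15 other samples and below tt8-7 and ban-6. The log2 fold change of 0.40 ± 0.23 was not called (edgeR adjusted p = 0.365). Of the stretches of 50 bases in BGLU10, 9.76% occur more than once in the genome. How reads from such stretches were counted is not given in the sources used here.

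Of the acyl transferases, 5MAT, which malonylates the 5-O-glucose (AT3G29590, chr3:11398592-11400332, 1 exon), had 0.742 CPM in ttg1-23 and 0.372 CPM in ttg1-24, from 20 and 3 counts. Across tt8 the lowest, median and highest were 17.1, 53.9 and 73.9 CPM, while ban had 11.2 and 22.2, tt1 27.3 and 30.6, tt3 27.6 and 32.6, tt5 21.3 and 18.0, and Col-0 20.8 CPM. No sample overlapped ttg1, and the lowest was 15.04 times the higher ttg1 value. The log2 fold change was −5.34 ± 0.71 (edgeR adjusted p = 0.0143).

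The coumaroyltransferase 3AT1 (AT1G03940, chr1:1009228-1011145, 1 exon) had 2.08 and 1.61 CPM in ttg1-23 and ttg1-24. In tt8 the lowest, median and highest values were 4.46, 13.1 and 19.7 CPM, while ban had 7.72 and 12.5, tt1 17.9 and 26.2, tt3 12.6 and 16.3, tt5 11.2 and 9.39, and Col-0 11.3 CPM. The ttg1 lines did not overlap the others, and 3AT1 fell by 2.75 ± 0.52 on the log2 scale (edgeR adjusted p = 0.0361).

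Its near copy 3AT2 (AT1G03495, chr1:873166-874476, 1 exon) had 3.30 and 3.85 CPM in ttg1-23 and ttg1-24. For tt8 the lowest, median and highest were 3.54, 8.15 and 10.7 CPM, while ban had 4.43 and 7.89, tt1 11.6 and 10.09, tt3 8.44 and 9.39, tt5 9.40 and 5.52, and Col-0 6.36 CPM. The ttg1-24 value lay above those of tt8-7 and tt8-8, so the groups overlapped, and the log2 fold change of −1.10 ± 0.41 was not called (edgeR adjusted p = 0.188). Read sharing makes this pair uncertain. The coding sequences are 96.4% identical over 1054 bases, and 515 stretches of 50 bases, 40.8% of those in 3AT2, occur in both genes. How the authors counted reads that map to both is not given in the sources used here. The ratio of 3AT1 to 3AT2 was 0.629 and 0.419 in ttg1-23 and ttg1-24, below the range of 1.19 to 2.59 in the other 15 samples. The summed CPM of the pair was 5.38 and 5.46 in the ttg1 lines, and its values elsewhere began at 7.99 in tt8-7.

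SCPL10, the sinapoyltransferase (AT2G23000, chr2:9792166-9796408, 14 exons), had 6.49 CPM in ttg1-23 and 2.85 CPM in ttg1-24. The tt8 lines had 10.3, 37.2 and 52.5 CPM as lowest, median and highest, ban 9.78 and 12.3, tt1 15.7 and 24.9, tt3 14.5 and 16.2, tt5 15.2 and 14.2, and Col-0 11.7 CPM. Both ttg1 lines lay below all 15 others. The log2 fold change of −1.80 ± 0.48 missed the threshold (edgeR adjusted p = 0.0870), whereas DESeq2 called it (adjusted p = 0.00253). Its neighbour and near copy SCPL9, 86.5% identical in coding sequence, had 11.9 and 5.34 CPM in ttg1 and 4.46 to 34.8 CPM elsewhere.

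**Figure D2:**
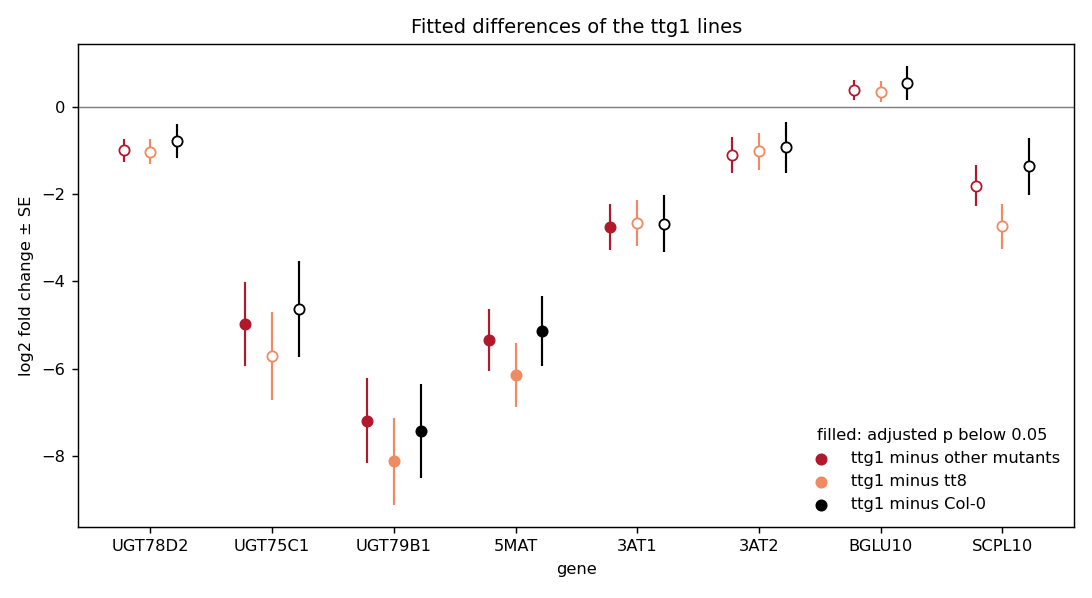
Log2 fold change ± SE of the 8 genes (x axis) in the ttg1 lines against the other mutants, against tt8 and against Col-0; filled points passed an adjusted p of 0.05. UGT79B1 and 5MAT are filled in all 3 comparisons, UGT75C1 and 3AT1 in the first, and the others in none.

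Ordered by the ttg1 mean as a percentage of the mean of the other 14 mutants, UGT79B1 stood at 0.672%, 5MAT at 1.67% and UGT75C1 at 2.44%. Next came 3AT1 at 13.8% and SCPL10 at 20.3%, then 3AT2 at 44.9% and UGT78D2 at 47.1%, and last BGLU10 at 126%. With both ttg1 lines below all 15 others there were 6 members (all but 3AT2 and BGLU10), where 2.79% of tested genes showed that pattern. Per kilobase of exon, the highest level of the 8 in ttg1 was that of BGLU10 (28.1 ± 0.076 CPM per kb, SD, n = 2), followed by UGT78D2 (12.96 ± 0.776), and the other 6 lay between 0.184 and 2.73. In the other mutants UGT75C1, UGT78D2 and UGT79B1 stood level at 27.8 ± 17.9, 27.5 ± 7.47 and 27.4 ± 18.0 CPM per kb (SD, n = 14). They were followed by BGLU10 (22.3 ± 4.21) and 5MAT (19.2 ± 11.1), and the order of these 5 was not tested. The lower levels were those of SCPL10 (11.0 ± 6.42), 3AT1 (6.99 ± 3.02) and 3AT2 (6.07 ± 2.04), whose order was not tested either. BGLU10 and UGT78D2 together made up 84.1% and 86.5% of the summed CPM per kb of the 8 genes in ttg1-23 and ttg1-24, against 20.3% to 57.5% in the other samples. The sum itself was 49.4 and 46.9 CPM per kb in ttg1, and its lowest value elsewhere was 82.3 in ban-6.

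**Figure D3:**
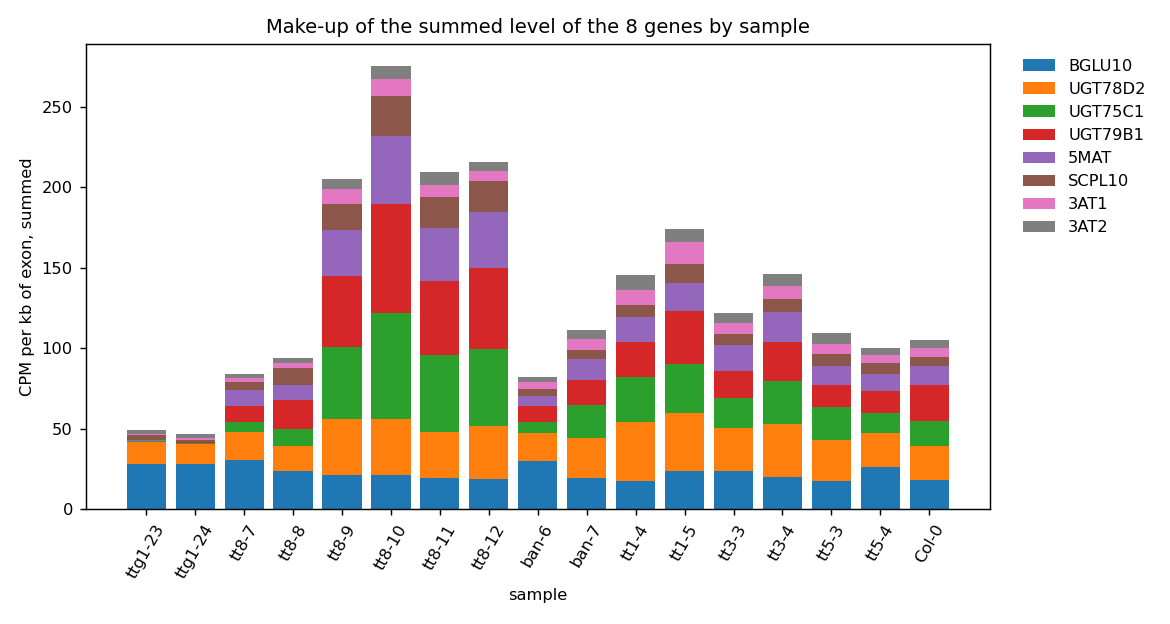
Summed level of the 8 genes in CPM per kilobase of exon in each of 17 samples, stacked by gene, with the ttg1 lines at the left. BGLU10 and UGT78D2 fill 84.1% and 86.5% of the 2 ttg1 bars; the highest bar is tt8-10 at 275.3 CPM per kb.

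Set against Col-0 alone, the ttg1 lines showed the same order of values with fewer calls. UGT79B1 (log2 −7.43 ± 1.08, edgeR adjusted p = 0.0127) and 5MAT (−5.14 ± 0.81, edgeR adjusted p = 0.0171) fell, so 2 of the 8 were called lower where 0.703% of tested genes were. UGT75C1 at −4.63 ± 1.10 (edgeR adjusted p = 0.0567) and 3AT1 at −2.67 ± 0.66 (edgeR adjusted p = 0.0620) missed the threshold. SCPL10, UGT78D2, 3AT2 and BGLU10 stood at −1.36, −0.78, −0.92 and 0.56 on the log2 scale. Without either ttg1 line 0 members were called, and with DESeq2, where 5.35% of genes were called, there were 4. Col-0 is a single sample, and the fit gave it the spread estimated from the mutants.

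The ttg1 lines were also set directly against the lines labelled tt8, whose gene encodes a partner of TTG1 in the complex. UGT79B1 (−8.13 ± 1.00) and 5MAT (−6.15 ± 0.74) were lower in ttg1 (edgeR adjusted p = 0.0139 for each), 2 of the 8 where 0.033% of tested genes were called lower. UGT75C1 at −5.72 ± 1.01, SCPL10 at −2.73 ± 0.52 and 3AT1 at −2.66 ± 0.54 had adjusted p between 0.0653 and 0.0797 in edgeR, and DESeq2, with 2.19% of genes called, called these 3 and UGT78D2 besides. Without ttg1-24 0 members were called, and without tt8-7 there were 5.

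In the lines labelled tt8, which still had TT8 RNA, none of the 8 genes passed the test. Against the lines of BAN, TT1, TT3 and TT5, 0 members were called by edgeR or DESeq2, where 0 of all tested genes (0%) were called. At an unadjusted p under 0.05 edgeR gave 521 genes, 2.46% of those tested, and 3 members, all higher in tt8. These were SCPL10 (1.17 ± 0.28), UGT79B1 (1.16 ± 0.35) and 5MAT (1.01 ± 0.30 on the log2 scale), and UGT75C1 stood at 0.92 ± 0.43. UGT78D2, 3AT1, 3AT2 and BGLU10 lay between −0.11 and 0.05.

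The tt8 lines differed widely among themselves. In tt8-9, tt8-10, tt8-11 and tt8-12 UGT75C1 had 73.8, 109, 78.9 and 79.2 CPM, while tt8-7 and tt8-8 had 10.4 and 18.2 CPM. UGT79B1 had 72.7, 112, 76.3 and 82.8 CPM in the first set of lines, against 15.99 and 28.8 CPM in tt8-7 and tt8-8. SCPL10 had 34.6, 52.5, 39.8 and 40.6 CPM, against 10.3 and 22.1 CPM in tt8-7 and tt8-8. For these genes and for 5MAT, all 4 of those lines lay above the other 13 samples, a pattern chosen after the values were seen and shared by 20 of the tested genes (0.0944%). For UGT78D2, 3AT1, 3AT2 and BGLU10 they did not. The lines did not order by their TT8 RNA, since tt8-11, with the least, and tt8-10, with 73.0 CPM, were both in the high set and tt8-8, with the most, was not.

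None of the 8 genes was called in ban, tt1, tt3, tt5 or tt8 against Col-0. The log2 differences of the 8 genes ran from −0.92 (UGT79B1) to 0.35 (BGLU10) in ban, from −0.80 (UGT79B1) to 0.20 (SCPL10) in tt5, and up to 1.37 ± 0.64 in tt8 for SCPL10 (edgeR adjusted p = 0.246). The share of tested genes called by edgeR was 0.415% in ban, 1.06% in tt1, 0.411% in tt3, 0.184% in tt5 and 2.01% in tt8. At an unadjusted p under 0.05 edgeR gave 0 members, where 14.6%, 16.8%, 18.6%, 10.8% and 20.6% of tested genes in the same order passed. DESeq2 also called 0 members, where it called 2.63%, 3.8%, 3.58%, 1.34% and 5.22% of its genes. The mutants other than ttg1 as one set also gave 0 members against Col-0, with 2.19% of tested genes called and 19.2% at an unadjusted p under 0.05 in edgeR, and 4.53% called in DESeq2. When the Col-0 files were counted as 2 samples, SCPL10 was called higher in tt8. Those files differed by less than sampling noise, so that setting holds no spread between separate wild type samples.

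The libraries also differed in markers of seed state, of which OLEO1 moved with several of the 8 genes. The marker list for seed state, oil body proteins and storage proteins, summed to 435 and 474 CPM in the ttg1 lines and to 369 to 18125 CPM in the others, with none of the 6 markers at 0. OLEO1, an oil body protein, had 36.6 and 30.0 CPM in ttg1. It stood between 12.2 and 87.4 CPM in 5 other samples (tt8-7, tt8-8, ban-6, tt5-4 and Col-0) and between 319 and 1945 CPM in the remaining 10, a limit of 100 CPM set after the values were seen. The same 5 samples had the lowest DFR, the enzyme that opens the late pathway, at 32.2 to 86.8 CPM against 193 to 274 CPM in the 10. These sets rest on OLEO1 alone, and every other marker of the seed list overlapped between them. The storage protein gene CRC had 202 CPM in tt8-7, low in OLEO1, but 52.4 and 40.6 CPM in tt3-3 and tt3-4, high in OLEO1. In ttg1-23 and ttg1-24 CRC had 83.2 and 66.0 CPM.

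UGT78D2 ran from 24.8 to 34.3 CPM in those 5 samples and from 40.4 to 59.0 CPM in the 10, with no overlap, and 3AT2 from 3.54 to 6.36 and from 7.89 to 11.6 CPM, again with no overlap. UGT75C1 (10.4 to 26.1 and 30.7 to 109 CPM) and 5MAT (11.2 to 20.8 and 21.3 to 73.9 CPM) did not overlap either, 5MAT by a narrow margin. For UGT79B1, 3AT1, SCPL10 and BGLU10 the sets overlapped. The share of all tested genes that part in this way is not given here. Against the 5 samples low in OLEO1, the ttg1 lines, themselves low in OLEO1, lay just under the UGT78D2 range, inside the 3AT2 range in ttg1-24, and inside the BGLU10 range of 34.4 to 57.9 CPM. UGT79B1 (15.4 to 36.1 CPM), 5MAT (11.2 to 20.8) and UGT75C1 (10.4 to 26.1) stayed far above their ttg1 values in these 5 samples, and 3AT1 (4.46 to 11.3) and SCPL10 (9.78 to 22.1) stayed above theirs too. With OLEO1 as a term in the fit, an alternative added after the values were seen, UGT79B1, 5MAT, UGT75C1 and 3AT1 were still called in ttg1 against the other mutants (log2 −6.59, −4.52, −3.71 and −2.15). UGT78D2 then stood at −0.56, 3AT2 at −0.36, SCPL10 at −1.32 and BGLU10 at −0.07, none of them called. The markers of photosynthetic shoot, 5 genes, summed to 191 and 289 CPM in ttg1 and 86.5 to 312 CPM elsewhere, and those of root, 5 genes, to 48.5 and 97.3 CPM in ttg1 and 34.2 to 134 CPM elsewhere, with none at 0. The part of these markers in the differences was not tested further.

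Over the 15 samples other than ttg1, levels on the log2(CPM + 1) scale were set against those of 6 other genes, 48 relations in all. None of the 24 with TTG1, TT8 or PAP1, a MYB gene of the complex, passed a permutation test after adjustment. With CHS, the first enzyme of flavonoid synthesis, UGT75C1 had r = 0.67 and rho = 0.73 (permutation p = 0.00722 and 0.00262, adjusted 0.0267 and 0.0285), and r = 0.65 without the 2 samples farthest in CHS. For 5MAT r was 0.68 and rho 0.69 (permutation p = 0.00567 and 0.00523, adjusted 0.0227 and 0.0285), and r without the 2 samples was 0.66. UGT78D2 (r = 0.66, rho = 0.56) and 3AT2 (r = 0.63, rho = 0.58) passed for r but not for rho (permutation adjusted p = 0.0305 and 0.102 for UGT78D2, 0.0370 and 0.0926 for 3AT2). Within the 10 samples high in OLEO1 none of the 24 relations with DFR, CHS or OLEO1 passed, where r with CHS was 0.53 for UGT75C1 and 0.41 for 5MAT. With 10 samples, that miss does not show that these relations are absent. Because DFR and OLEO1 parted the samples into the same sets, no r over all 15 is given for them.

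TT8 related to several of the members once the lines labelled tt8 were left aside, a choice made after the values were seen. Among the samples left, TT8 was lowest in ban-6, Col-0 and tt5-4 (10.2, 11.5 and 14.5 CPM), the ones low in OLEO1. The rest, high in OLEO1, had 15.96 to 36.9 CPM. TT8 thus parted these samples into the same sets as OLEO1. Over the other 9 samples SCPL10 had r = 0.97 and rho = 0.97 (exact permutation p = 0.000165 for each, adjusted over 24 relations 0.00397), and r = 0.85 without ban-6 and tt1-5. For 3AT1 r was 0.92 and rho 0.90 (exact permutation p = 0.000537 and 0.00203, adjusted 0.00645 and 0.00974), and r was 0.71 without those 2 samples. UGT78D2 (r = 0.87, rho = 0.93) and UGT75C1 (r = 0.83, rho = 0.90) also passed (exact permutation adjusted p = 0.00941 and 0.0060 for UGT78D2, 0.0473 and 0.00974 for UGT75C1). 5MAT (r = 0.79, rho = 0.93) and 3AT2 (r = 0.78, rho = 0.87) passed for rho but not for r (exact permutation adjusted p = 0.0060 and 0.0633 for 5MAT, 0.0180 and 0.0559 for 3AT2). UGT79B1 (r = 0.77, rho = 0.78) and BGLU10 (r = −0.16, rho = −0.25) passed for neither, and UGT79B1 had r = 0.17 without ban-6 and tt1-5. Among the 6 of these samples that were high in OLEO1, r was 0.98 for SCPL10, 0.89 for UGT79B1 and 0.92 for 3AT1 (exact permutation p = 0.00556, 0.00694 and 0.00972, not adjusted over the 8 relations). There UGT75C1 had r = 0.75 and UGT78D2 0.71 (exact permutation p = 0.0278 and 0.0194), and 5MAT, BGLU10 and 3AT2 had r = 0.62, 0.55 and 0.44 with p above 0.05. For SCPL10, UGT79B1 and 3AT1 rho was 0.94, 0.94 and 0.89 (exact permutation p = 0.0167, 0.0167 and 0.0333). For UGT75C1 and UGT78D2 rho was 0.71 and 0.83 and missed 0.05 (exact permutation p = 0.136 and 0.0583). Of these 6 samples tt1-5 stood apart in TT8, at 36.9 CPM against 15.96 to 20.2 CPM.

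**Figure D4:**
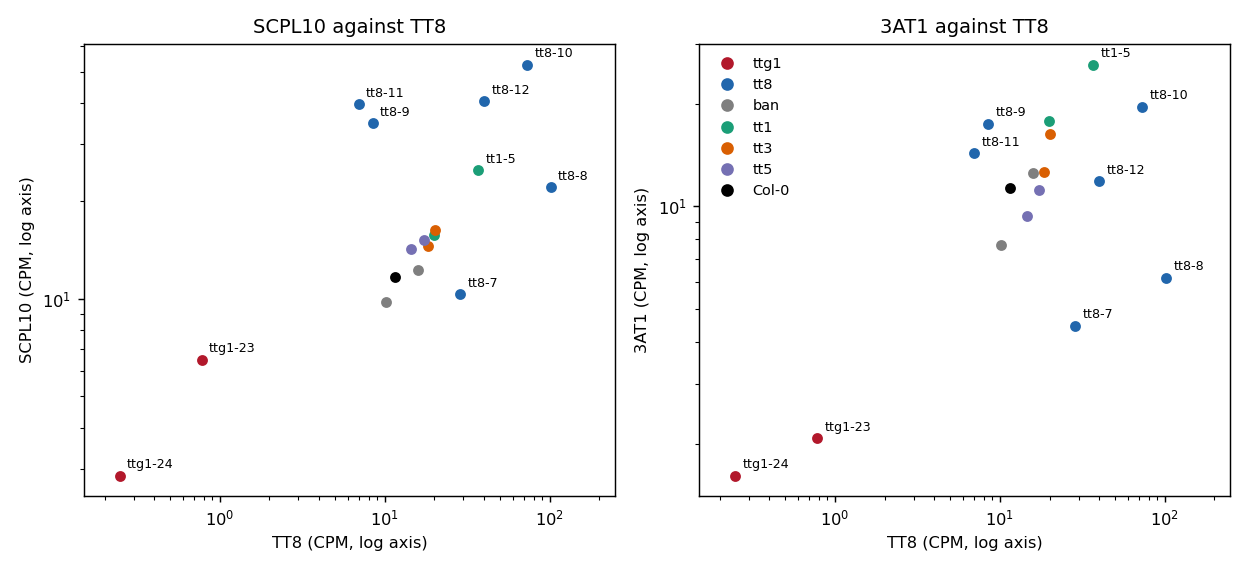
SCPL10 (left) and 3AT1 (right) in CPM against TT8 in CPM, all axes logarithmic, one point for each of 17 samples, coloured by gene of the line. Outside the tt8 lines the points climb together, while the tt8 lines scatter, with tt8-7 and tt8-8 low in both genes for their TT8 level.

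The 8 genes also differed in which of them moved together. Over the 15 samples, UGT79B1 and 5MAT had r = 0.95 and rho = 0.89, UGT75C1 and 5MAT 0.94 and 0.95, UGT75C1 and UGT79B1 0.94 and 0.90, and SCPL10 and UGT79B1 0.93 and 0.90. UGT78D2 ran with 3AT1 (r = 0.91, rho = 0.94) and 3AT2 (r = 0.91, rho = 0.88), and 3AT1 with 3AT2 (r = 0.90, rho = 0.86), the last a pair that shares reads. UGT75C1 was close to both sets over these 15 samples, with r = 0.87 to UGT78D2, 0.84 to 3AT2 and 0.81 to 3AT1, beside 0.85 to SCPL10. Within the 10 samples high in OLEO1 it had r = 0.57 with UGT78D2, 0.26 with 3AT2 and 0.35 with 3AT1, beside 0.97 with SCPL10. SCPL10 had r = 0.52 with 3AT1 and 0.49 with 3AT2. BGLU10 had a negative r with each of the other 7, from −0.71 with 3AT2 to −0.34 with SCPL10. Within the 10 samples high in OLEO1 those negative values were not seen, since r of BGLU10 lay between −0.14 with 3AT2 and 0.46 with 3AT1 and was positive for 5 of the 7. These are descriptions of 28 pairs, and the samples share the OLEO1 sets above. Without the tt8 lines, over 9 samples, SCPL10 and UGT79B1 had r = 0.78, and SCPL10 and 3AT1 r = 0.88, while UGT75C1 had r = 0.95 with 3AT2, 0.94 with UGT78D2 and 0.83 with UGT79B1. Within the 10 samples high in OLEO1 all 6 pairs among UGT75C1, UGT79B1, 5MAT and SCPL10 had r of 0.96 or more, and 4 of these samples are the high tt8 lines. In the same 10 samples UGT78D2 had r = 0.78 with 3AT1 but 0.43 with 3AT2, and 3AT1 had r = 0.56 with 3AT2. The second set was thus looser there than over all 15 samples.

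**Figure D5:**
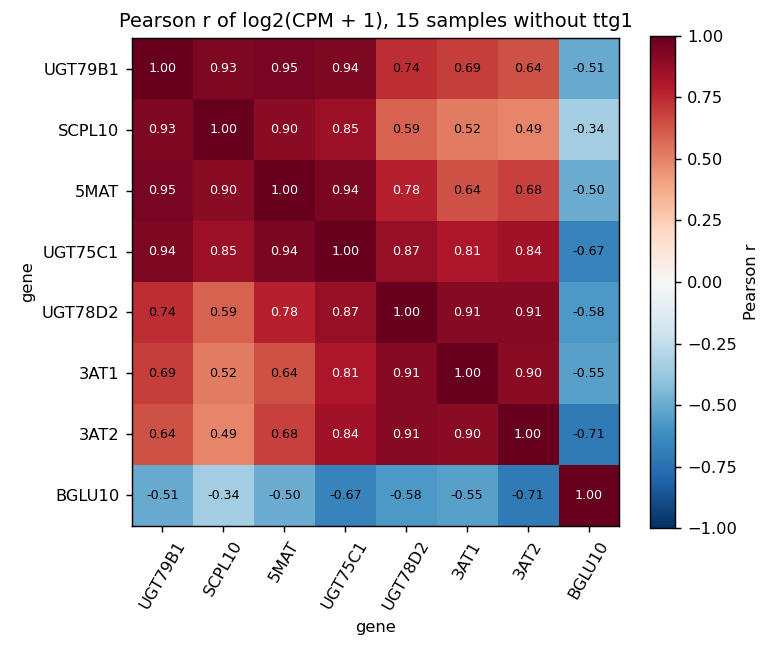
Pearson r of log2(CPM + 1) between the 8 genes (both axes) over the 15 samples other than ttg1, coloured from −1 to 1. UGT79B1, SCPL10, 5MAT and UGT75C1 have r = 0.85 to 0.95 among themselves and UGT78D2, 3AT1 and 3AT2 0.90 to 0.91, while UGT75C1 reaches 0.81 to 0.87 with the second set. BGLU10 is negative with all 7. Within the 10 samples high in OLEO1, r among UGT78D2, 3AT1 and 3AT2 was 0.43 to 0.78.

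The genes most like each member were sought over the 15 samples among 18686 genes with a mean of at least 1 CPM, as a description that the OLEO1 sets also enter. UGT75C1 was closest to LDOX (r = 0.98), the enzyme that makes anthocyanidins, GSTF12 (r = 0.97), the glutathione transferase needed for vacuolar uptake, and 4CL3 (r = 0.95), a 4-coumarate:CoA ligase. The same 3 genes led for UGT79B1, with 4CL3 first (r = 0.95). For 5MAT they were LDOX (r = 0.95), 4CL3 (r = 0.94) and AT2G30650 (r = 0.92), and for SCPL10 4CL3 (r = 0.89), KAT5 (r = 0.87), a ketoacyl-CoA thiolase, and MAKR5 (r = 0.83). UGT78D2 was closest to DFR, AT5G58990 and TET10, and 3AT2 to AT5G19920 (r = 0.96), DFR and XTH16. Within the 10 samples high in OLEO1, r with DFR was 0.52 for UGT78D2 and 0.36 for 3AT2. For 3AT1 the closest were GAUT4 (r = 0.94), AT3G54930 and XTH16, and for BGLU10 AT5G10946 (r = 0.96), CAT2 (r = 0.94) and PSY1R (r = 0.93).

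The ttg1 libraries, which had no part in these likenesses, separated the companions. LDOX had 0.260 and 0.124 CPM in ttg1-23 and ttg1-24 against 19.7 to 185 CPM elsewhere (log2 −8.16 ± 1.16, edgeR adjusted p = 0.0166). GSTF12 had 0.371 and 0.124 CPM in ttg1 against 17.3 to 153 CPM (−7.78 ± 1.11, edgeR adjusted p = 0.0166). DFR had 0.593 CPM in ttg1-23 and no count in ttg1-24 (at most 0.372 CPM), against 32.2 to 274 CPM (−8.69 ± 1.41, edgeR adjusted p = 0.0238).
4CL3 kept 3.93 and 3.23 CPM in ttg1 against 6.42 to 40.5 CPM, and KAT5 8.38 and 5.71 CPM against 12.2 to 99.2 CPM. Neither was called (−1.85 and −2.22, edgeR adjusted p = 0.123 and 0.130). GAUT4, the companion of 3AT1, had 119 and 97.1 CPM in ttg1 and 94.7 to 138 CPM elsewhere. CAT2, the companion of BGLU10, had 416 and 396 CPM in ttg1 and 256 to 522 CPM elsewhere.

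Of the pathway lists around the 8 genes, the late partners DFR, LDOX and GSTF12 fell in ttg1 against the other mutants, 3 of 3. None of the 6 early flavonoid genes (CHS, CHI, CHIL, F3H, F3′H and FLS1) was called, although all 6 had an unadjusted p under 0.05, where 18.4% of all tested genes did, and their median log2 difference was −1.66, beside −0.00026 for all tested genes. Of 6 genes that supply sinapoylglucose, the donor of SCPL10, 0 were called, with a median of 0.18 and 0 at an unadjusted p under 0.05 in edgeR. Of 6 genes that supply coumaroyl-CoA, the donor of 3AT1 and 3AT2, 0 were called, with a median of 0.17 and 2 at an unadjusted p under 0.05. Among relatives of the members, 0 of 5 tested UGT genes, 0 of 5 BAHD genes and 0 of 5 SCPL genes were called. At an unadjusted p under 0.05 edgeR gave 2 of these UGT genes, 2 of the BAHD and 0 of the SCPL genes, and 4 of 6 relatives of BGLU10. Of the 6 relatives of BGLU10 tested, BGLU7 fell, with 8.64 and 8.32 CPM in ttg1 against 13.9 to 53.2 CPM elsewhere (−2.11 ± 0.38, edgeR adjusted p = 0.0300). BGLU9, 93.6% identical to BGLU10 in coding sequence, had 20.1 and 11.5 CPM in ttg1 against 4.95 to 14.4 CPM (0.99 ± 0.36, edgeR adjusted p = 0.174). Of 4 tested genes of flavonol decoration 0 were called (median −0.29, 1 at an unadjusted p under 0.05), and of 4 tested genes of vacuolar transport GSTF12 was. Of 5 tested genes of the sugar and nitrogen response 0 were called, with 0 at an unadjusted p under 0.05 in edgeR.

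Among 9 tested regulators, MYBL2, a repressor of the pathway, fell in ttg1, with 1.85 and 1.61 CPM against 5.66 to 19.2 CPM elsewhere (−2.41 ± 0.42, edgeR adjusted p = 0.0292). TT8 had 0.779 and 0.248 CPM in ttg1 against 6.97 to 102 CPM (−5.10 ± 1.21, edgeR adjusted p = 0.0647), and GL3, another bHLH gene, 1.74 and 0.993 CPM against 2.76 to 7.92 CPM (−1.72 ± 0.38, edgeR adjusted p = 0.0524). EGL3, a further bHLH gene, had 5.19 and 3.35 CPM against 2.32 to 10.7 CPM.
The MYB gene PAP1 had 21.7 and 13.2 CPM in ttg1 against 3.97 to 19.1 CPM, with a log2 difference of 1.06 ± 0.33 that was not called (edgeR adjusted p = 0.127). PAP2 had 16.02 and 17.7 CPM in ttg1 against 10.5 to 52.8 CPM, and MYB113 1.22 and 1.12 CPM against 0.688 to 9.10 CPM. CPC, a repressor of the MYB class, had 2.86 and 2.48 CPM against 1.07 to 3.21 CPM. MYB114 had at most 2 counts in any library and was not tested.

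The nearest annotated genes beside UGT79B1 and 5MAT had at most 0.372 CPM in any sample. Beside UGT78D2, the related gene UGT78D4 had 1.00 and 0.372 CPM in ttg1 against 0.436 to 14.7 CPM (−2.41 ± 1.05, edgeR adjusted p = 0.249), and ARFB1B had 25.3 and 25.2 CPM against 16.4 to 37.9 CPM. The flavonol-arabinosyltransferase copy UGT78D3 had 0 counts in ttg1-23 (at most 0.111 CPM) and ttg1-24 (at most 0.372 CPM). It also had 0 counts in tt8-7, tt8-8, ban-6 and tt1-5, and reached at most 1.14 CPM in any sample.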

How the data were processed

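The authors deposited read counts per gene for each library, whole numbers with no normalization. Per the labels' protocols the libraries were stranded mRNA libraries read from one end. Per the submitters' processing notes HISAT2 and TAIR10 were used, and the counter, its strand setting and its treatment of multiply mapped reads were not given in the sources used here. Of 33939 identifiers, 1392 were not Arabidopsis locus identifiers (0.00637% to 0.0204% of counts) and were left out of every total and fit.

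The Col-0 files gave a chi-square per degree of freedom of 0.222, against 9.54 to 143 for 20 other pairs of libraries within a group, and their rounded mean was used as 1 sample. Tests were run in edgeR 4.0.16 (R 4.3.3) on 17 samples in 7 groups, with TMM scaling (factors 0.917 to 1.07), filterByExpr, the robust quasi-likelihood F-test with 10 residual degrees of freedom, two-sided, and Benjamini-Hochberg adjustment over 21184 genes at 0.05. DESeq2 1.42.0 was an alternative, and only the edgeR fit was tested on simulated data. CPM are per 1000000 counts of the loci, with exact 95% Poisson intervals of counting error, and 0 counts are given with a limit of 3 counts. Levels between genes were compared per kilobase of exon in the TAIR10.1 annotation. Correlations used log2(CPM + 1) and 100000 permutations, or all of them for under 10 samples, all two-sided. Near copies were found by BLAST 2.17.0 on coding sequences, since no protein table was used here. Alternatives were other scaling, no filter, a term for line ends (4 files have Windows and 14 Unix line ends), Col-0 as 2 samples, fits of the compared libraries alone, and each line left out.

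The 8 genes, the gene lists and the comparisons were chosen with earlier results of these data known. Named genes are the 8, every gene of the late partner and regulator lists, up to 4 called genes of each other list, the 3 genes most like each of the 8 over the 15 samples other than ttg1, and neighbours and near copies.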

Additional observations from a re-analysis of the deposited data

Results flagged for a closer look

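The response of UGT79B1 differed between the genotypes ttg1 and tt8 when each was set against Col-0. Col-0 drops out of that difference, which is thus the direct comparison of ttg1 with tt8 given above and not a separate result. The difference, ttg1 minus tt8, was −8.13 on the log2 scale (edgeR adjusted p = 0.0139), with both ttg1 lines below all 6 tt8 lines. The same held for 5MAT, with a difference of −6.15 (edgeR adjusted p = 0.0139) and both ttg1 lines below all 6 tt8 lines. Both calls were lost without ttg1-24, with log2 differences of −9.08 for UGT79B1 and −5.92 for 5MAT (edgeR adjusted p = 0.306 and 0.324). Both were also lost when the ttg1 and tt8 libraries were fitted alone.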

How the results depend on the processing

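Of the members called, ttg1 against the other mutants gave 4, and the range without each line in turn was 0 (without ttg1-24) to 5 (without tt8-7). It was 2 (UGT79B1 and 5MAT) without ttg1-23, tt1-4, tt3-3, tt3-4, tt5-3, tt5-4, tt8-10, tt8-11 or tt8-12, and 2 with a term for line ends. Against Col-0 the count of 2 became 4 with DESeq2, with OLEO1 as a term or with Col-0 as 2 samples. It became 0 with the line-end term, with the compared libraries alone and without either ttg1 line (lowest and highest 0). Against tt8 the count of 2 became 6 with DESeq2, 5 with Col-0 as 2 samples and 0 with the compared libraries alone, and ran from 0 (without ttg1-24) to 5 (without tt8-7) without each line. For tt8 against Col-0 the count of 0 became 1 (SCPL10) with Col-0 as 2 samples. Counts with Col-0 as 2 samples treat files that differ by less than sampling noise as replicates, so the calls gained there carry no weight. All genes called in ttg1 against the other mutants numbered 224 in edgeR, 1136 with DESeq2, 56 with the line-end term and 815 with the OLEO1 term.

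Signs changed for uncalled values alone. With OLEO1 as a term BGLU10 stood at −0.073 in ttg1 against the other mutants and −0.13 against tt8, and UGT78D2 at −0.011 in tt8 against the 4 other genes. The same term gave −0.14 for UGT78D2, −0.69 for UGT75C1, −0.44 for 5MAT, −0.40 for 3AT1 and −0.42 for 3AT2 in the other mutants against Col-0, and the line-end term gave −0.23 for UGT78D2, −0.11 for UGT75C1, −0.21 for 5MAT and −0.28 for 3AT1. In tt8 against the 4 other genes 3AT1 stood at 0.0024 with the line-end term. There the range without each line was −0.035 to 0.15 for UGT78D2, −0.28 to 0.050 for 3AT1, −0.23 to 0.021 for 3AT2 and −0.083 to 0.14 for BGLU10. The cause was not tested.

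No paired analysis was possible because the labels number the lines by allele, no allele number marks a shared batch or culture, and replicate numbers were assigned in accession order. The ttg1 counts of UGT79B1 (3 and 4) and of 5MAT in ttg1-24 (3) limit the precision of those folds.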
